A study of Mus musculus with 12 samples.

Results

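The genes described here are R-spondins, Wnt ligands and Wnt feedback genes: Rspo1, Rspo2, Rspo3, Wnt4, Wnt5a, Axin2, Znrf3, Lgr4, Sfrp1 and Dkk3. They are 10 genes chosen by name among the 17335 with a row in the count table of at least 1 of 2 mouse pancreatic cell lines. Of the 10, 9 had a row for the stellate cells and 7 had one for the tumour cells. Rspo1 had no row in either table used here, and Rspo2 and Sfrp1 had none in the tumour cell table, so no value is given for them there.

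RNA was sequenced from a supernatant transfer model. PSC4 is a mouse pancreatic stellate line, derived from stroma that can turn into matrix-producing fibroblasts, and KPC4 is a mouse pancreatic adenocarcinoma line. PSC4 cells spent 24 h in starvation medium that KPC4 cells had conditioned for 14 h, after those KPC4 cells had had 6 h of vehicle (Control-SU) or of 10 µM gemcitabine, a nucleoside drug given in pancreatic cancer (Gem-SU), and a wash. KPC4 cells spent 24 h in starvation medium conditioned for 18 h by PSC4 cells that had first had 6 h of Control-SU or Gem-SU and a wash (Control-PSC-SU and Gem-PSC-SU), so that these KPC4 cells were a step further from the drug. All 4 groups thus received conditioned starvation medium, and no group received fresh medium. Each had 3 libraries, labelled as biological replicates of 1 line, and where nothing says that they came from separate cultures the p-values measure only the spread between these libraries.

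The libraries held between 29559414 and 38138356 counts in PSC4 and between 26354328 and 34744150 in KPC4. All replicate pairs differed by more than counting noise (chi-square per degree of freedom at least 30.4), so each library was counted as its own sample. Both lines carried markers of their labels. Of 12 stellate and fibroblast markers 11 had a row in PSC4, among them Pdgfra, Pdgfrb and Col1a1, and they summed to 8139 to 8705 CPM (counts scaled to a common library size) with Control-SU. Of 12 epithelial and tumour markers 11 had a row in KPC4, with a sum of 6017 to 7458 CPM with Control-PSC-SU. The stellate list summed to 2417 to 2806 CPM in these KPC4 libraries, with 7 of 12 markers having a row. Of that sum Vim made up 2391 to 2773 CPM, while Pdgfrb, Thy1 and Dcn had no row and Pdgfra was at 0.202 to 0.889 CPM. The same epithelial list summed to 16.2 to 17.0 CPM in PSC4 with Control-SU and 18.2 to 22.9 with Gem-SU. There 8 of its 12 genes had a row, Epcam and Cdh1 not among them. Of its 5 genes tested in PSC4, 2 rose and 1 fell with Gem-SU, where 24.3% of all genes rose and 22.0% fell. Muc1 went from a mean of 10.9 to 6.33 CPM, Krt19 from 2.947 to 7.645, Krt7 from 1.505 to 3.261 and Grhl2 from 0.272 to 1.69.

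Wnt proteins are secreted ligands that bind Frizzled receptors and LRP co-receptors and, in the canonical branch, keep beta-catenin from being degraded so that it can act with TCF/LEF factors in the nucleus. R-spondins are secreted proteins that raise the sensitivity of a cell to Wnt: they bind LGR receptors such as Lgr4 and thereby draw the membrane ubiquitin ligases Znrf3 and Rnf43 away from the Frizzled receptors that these would otherwise remove. Axin2 and Znrf3 are themselves induced by beta-catenin in many tissues and act as negative feedback, while Sfrp1 is a secreted protein that binds Wnts. Stellate cells and fibroblasts are known as a stromal source of Wnts, R-spondins and secreted Wnt modulators in the pancreas and other organs.

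Set per kilobase of exon (RPKM), which allows genes to be compared with each other, the secreted modulators led in PSC4 with Control-SU. Dkk3 stood at 74.0 ± 12.5 RPKM (SD, n = 3) and Sfrp1 at 23.1 ± 1.93. Rspo2 (4.72 ± 0.804), Lgr4 (4.06 ± 0.109), Znrf3 (3.36 ± 0.728) and Wnt4 (3.04 ± 1.35) followed. The libraries of Rspo2 overlapped those of Lgr4, and the libraries of Wnt4 overlapped those of Rspo2, Lgr4 and Znrf3. Below them came Rspo3 at 1.47 ± 0.097 RPKM, Axin2 at 0.416 ± 0.106 and Wnt5a at 0.0498 ± 0.0433, each apart from its neighbours. With Gem-SU the order was Dkk3, Sfrp1, Lgr4, Wnt4, Znrf3, Axin2, Rspo3, Rspo2 and Wnt5a. There Rspo2 stood at 0.189 ± 0.157 RPKM and overlapped both Rspo3 above it and Wnt5a below it.

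The first comparison asked which of these transcripts differ in stellate cells between supernatants from drug-treated and untreated tumour cells. Both R-spondins with a row fell with Gem-SU, Rspo2 24.4-fold and Rspo3 5.77-fold, and so did the secreted modulators Dkk3, 2.95-fold, and Sfrp1, 1.97-fold. Lgr4, the R-spondin receptor, rose 1.51-fold. Wnt4, Wnt5a, Znrf3 and Axin2 did not pass the test. Of the 9 genes tested, 1 was called higher and 4 lower at an adjusted p under 0.05 (edgeR's quasi-likelihood test, Benjamini-Hochberg adjustment over 13347 genes). Over all genes 46.3% were called, 24.3% higher and 22.0% lower, so the count of 5 of 9 stands close to the background. The median log2 fold change of the 9 was -0.27, against -0.0032 over all genes.

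Rspo2 had 979, 639 and 734 counts in the Control-SU libraries and 71, 26 and 8 in the Gem-SU libraries. These are 28.4, 20.2 and 23.9 CPM against 1.85, 0.781 and 0.271 CPM. All Gem-SU libraries lay far below all Control-SU libraries, with Gem-SU replicate 1 the highest of the 3. Groups were likewise apart in 56.4% of all genes tested. The mean fell from 24.1 ± 4.11 to 0.966 ± 0.803 CPM (SD, n = 3), a log2 fold change of -4.61 (SE 0.55, 95% interval -5.86 to -3.36, adjusted p = 0.000381 in edgeR's test). Gem-SU replicate 1 moves its size: without that library it was -5.49 (adjusted p = 3.19e-05). The Control-SU libraries of Rspo2 were enough to clear the filter on low counts. Its Gem-SU libraries alone were not, with only 8 counts in replicate 3.

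Rspo3, the second R-spondin, was a lower and more even transcript in the control cells, with 145, 147 and 147 counts. In the Gem-SU libraries it had 29, 35 and 16 counts. In CPM this is 4.20, 4.64 and 4.78 against 0.754, 1.05 and 0.542, and again the groups did not overlap. This was a log2 fold change of -2.53 (SE 0.34, 95% interval -3.31 to -1.74, adjusted p = 0.00069 in edgeR's test). The falls of Rspo2 and Rspo3 passed the threshold without any 1 of the 6 libraries.

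Lgr4, a receptor through which R-spondins act, moved the other way. Its Control-SU libraries held 802, 777 and 737 counts (23.3, 24.5 and 24.0 CPM) and its Gem-SU libraries 1287, 1210 and 1132 (33.4, 36.4 and 38.4 CPM). All Gem-SU libraries were above all Control-SU libraries, and both groups were tight. Lgr4 had a log2 fold change of 0.59 (SE 0.15, 95% interval 0.26 to 0.92, adjusted p = 0.0107 in edgeR's test). The call was lost without Control-SU replicate 3 (0.56, adjusted p = 0.0577), without Gem-SU replicate 2 (0.59, adjusted p = 0.0516) and in one fit of all 12 libraries (0.55, adjusted p = 0.0936).

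Znrf3, the ligase that R-spondins draw away from Frizzled, had 686, 963 and 897 counts with Control-SU and 982, 978 and 1025 with Gem-SU. The groups overlapped in CPM, at 19.9 to 30.4 against 25.5 to 34.7, and the log2 fold change was 0.17 (95% interval -0.31 to 0.65, adjusted p = 0.525 in edgeR's test).

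**Figure D1:**
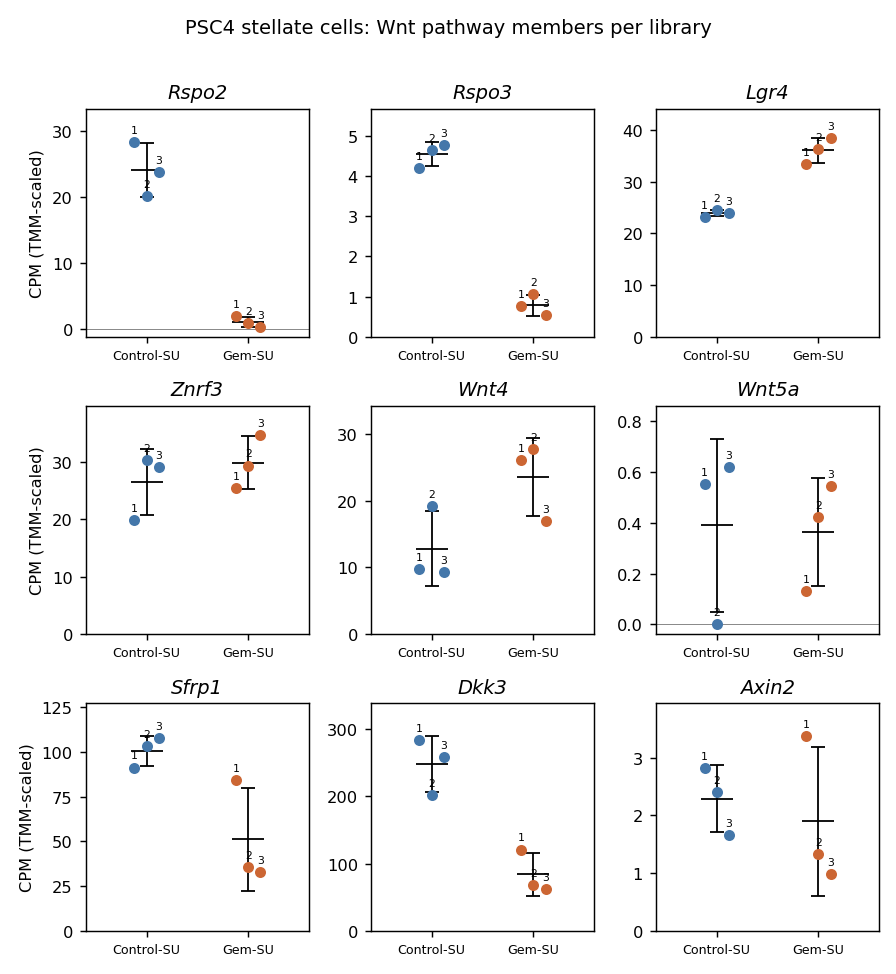
Level of the 9 genes with a row in PSC4, in CPM scaled by TMM factors, in the 3 Control-SU (blue) and 3 Gem-SU (orange) libraries, numbered by replicate, with the mean (bar) and SD (whiskers). Axes are linear, start at or just below 0 and differ between panels; Rspo2 stands at 20.2 to 28.4 CPM with Control-SU and 0.271 to 1.85 with Gem-SU, and in Sfrp1, Dkk3 and Axin2 Gem-SU replicate 1 is the highest Gem-SU library.

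Wnt4, a secreted ligand, stood above Wnt5a in PSC4. It had 336, 611 and 285 counts with Control-SU and 1007, 923 and 500 with Gem-SU, or 9.74, 19.3 and 9.26 against 26.2, 27.7 and 16.9 CPM. Gem-SU replicate 3 lay below Control-SU replicate 2, so the groups overlapped. The log2 fold change was 0.89 (SE 0.32, 95% interval 0.15 to 1.62) and the adjusted p 0.0503 in edgeR's test, just outside the threshold. Wnt4 was past the threshold without Control-SU replicate 2 (1.28, adjusted p = 0.00719), without Gem-SU replicate 3 (1.08, adjusted p = 0.0328) and under DESeq2 (0.88, adjusted p = 0.0221). Leaving out any 1 of the other 4 libraries left it outside the threshold, with the lowest value, 0.66, without Control-SU replicate 3 (adjusted p = 0.181). In the authors' deposited table it had a log2 fold change of 0.85 and an adjusted p of 0.0207.

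Wnt5a, a ligand known mainly for beta-catenin-independent signalling, was near the floor in PSC4. Its counts were 19, 0 and 19 with Control-SU and 5, 14 and 16 with Gem-SU. The groups overlapped, and the interval of the log2 fold change, -2.45 to 2.22, allowed a several-fold change either way (adjusted p = 0.935 in edgeR's test). No difference in Wnt5a was detectable at this depth.

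Dkk3, a secreted glycoprotein of the Dickkopf family, had the highest level of the 9 in PSC4. Its Control-SU libraries held 9799, 6410 and 7966 counts and its Gem-SU libraries 4658, 2292 and 1857. These are 284.1, 202.4 and 258.9 CPM against 121.0, 68.9 and 62.9 CPM, with no overlap and Gem-SU replicate 1 closest to the controls. The log2 fold change was -1.56 (SE 0.27, 95% interval -2.17 to -0.95, adjusted p = 0.00195 in edgeR's test), and it passed the threshold without any 1 library.

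Sfrp1, which binds Wnts outside the cell, had 3151, 3280 and 3310 counts with Control-SU and 3255, 1196 and 972 with Gem-SU. In CPM the controls were 91.3, 103.6 and 107.6, and the Gem-SU libraries 84.6, 35.9 and 32.9. Gem-SU replicate 1 thus stood just under the lowest control, and the other 2 stood well below. Over all 6 libraries Sfrp1 had a log2 fold change of -0.98 (SE 0.33, 95% interval -1.74 to -0.22, adjusted p = 0.0405 in edgeR's test). Without Gem-SU replicate 1 it was -1.55 with an adjusted p of 0.000101. The call was lost without Control-SU replicate 1 (-1.05, adjusted p = 0.0581), 2 (-0.99, adjusted p = 0.0697) or 3 (-0.98, adjusted p = 0.0851), at a change about as large. It was also lost without Gem-SU replicate 2 (-0.77, adjusted p = 0.141) or 3 (-0.74, adjusted p = 0.105).

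Axin2, a scaffold of the beta-catenin destruction complex and a widely used readout of beta-catenin activity, did not separate the groups. It had 97, 76 and 51 counts with Control-SU and 130, 44 and 29 with Gem-SU, or 2.81, 2.40 and 1.66 against 3.38, 1.32 and 0.983 CPM. Gem-SU replicate 1 was the highest of all 6 libraries and the other 2 Gem-SU libraries were the lowest. Axin2 thus had a log2 fold change of -0.27 (SE 0.50, 95% interval -1.41 to 0.87, adjusted p = 0.688 in edgeR's test). The interval takes in a more than 2-fold fall, no change and a rise of less than 2-fold.

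Stellate markers moved in the same comparison. Of the 11 measured, 8 fell and 3 (Acta2, Des and Fap) did not pass, where 22.0% of all genes fell. Their summed level went from 8139 to 8705 CPM down to 2457 to 3671 CPM. Pdgfra had a log2 fold change of -3.30 (adjusted p = 5.98e-05 in edgeR's test) and Col1a2 one of -1.77 (adjusted p = 0.000309). The part of this shift in the falls of Rspo2, Rspo3, Sfrp1 and Dkk3 was not tested. In bulk RNA fewer cells of a kind and less RNA per cell cannot be told apart.

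The promoters of Lgr4, which rose, and of Axin2 are shown with that of Wnt11, described further on, as 250 bases before the start of the gene (RefSeq, GRCm38.p6, + strand). The motif searched was CTTTGA on both strands (TCAAAG on the other), a 6-base core bound by TCF/LEF factors, printed in capitals where found. They lie at chr2:109917397-109917646 for Lgr4, chr11:108920099-108920348 for Axin2 and chr7:98834862-98835111 for Wnt11.
Lgr4: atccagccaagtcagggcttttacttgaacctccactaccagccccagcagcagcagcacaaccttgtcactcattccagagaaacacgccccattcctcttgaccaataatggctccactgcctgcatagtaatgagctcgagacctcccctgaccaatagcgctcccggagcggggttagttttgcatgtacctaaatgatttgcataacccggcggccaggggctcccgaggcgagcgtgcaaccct
Axin2: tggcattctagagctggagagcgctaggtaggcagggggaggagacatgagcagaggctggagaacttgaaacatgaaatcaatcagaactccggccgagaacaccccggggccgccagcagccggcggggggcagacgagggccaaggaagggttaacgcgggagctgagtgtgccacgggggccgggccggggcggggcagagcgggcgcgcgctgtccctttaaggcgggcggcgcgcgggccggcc
Wnt11: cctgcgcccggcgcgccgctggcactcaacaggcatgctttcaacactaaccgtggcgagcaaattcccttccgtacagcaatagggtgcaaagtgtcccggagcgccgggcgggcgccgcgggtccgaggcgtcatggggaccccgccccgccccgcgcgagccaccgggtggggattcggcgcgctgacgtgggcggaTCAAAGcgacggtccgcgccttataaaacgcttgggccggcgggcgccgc
Of the 10 genes 4 had a window in the RefSeq table and 0 of these held the motif. Among the 103 Wnt genes listed in all, 68 had at least 1 window and 11 of these (16.2%) held it in at least 1, against 15.8% of all 27025 genes with a window. Of all 32851 windows 13.8% held it. The window of Wnt11 shown held 1 match and is 1 of 2 for that gene. A match describes the letters only, and its absence from these windows says nothing of binding elsewhere.

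The other genes of the pathway were taken from 8 lists by role, 93 genes in all, of which 69 were tested in PSC4. Of these 13 rose, 18 fell and 38 did not pass, so 31 of 69 were called where 46.3% of all genes were. The 13 include genes, named below, that cleared the filter on low counts only through Gem-SU and so had to be higher. Their median log2 fold change was -0.10, against -0.0032 over all genes.

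Among other Wnt ligands, 4 of the 10 tested rose and 0 fell, where 24.3% of all genes rose and 22.0% fell. Wnt9a went from 20, 4 and 36 counts with Control-SU to 1704, 1691 and 782 with Gem-SU, a log2 fold change of 6.02 (SE 0.59, adjusted p = 0.00017 in edgeR's test), or 6.76 without Control-SU replicate 3. Per kilobase of exon Wnt9a stood at 12.2 RPKM with Gem-SU, against 5.63 RPKM for Wnt4. Wnt10a, named here after its values were seen, was above Wnt4 with Control-SU, at 9.41 against 3.04 RPKM, and did not pass the test (log2 fold change -0.37, adjusted p = 0.216). Wnt7b went from 16, 7 and 13 counts to 262, 230 and 131 (4.02, SE 0.39, adjusted p = 0.000163). Wnt11, a ligand of the beta-catenin-independent branch, went from 4, 0 and 0 counts to 36, 38 and 64 (adjusted p = 0.00364). Wnt3 had 0 counts in all Control-SU libraries and 13, 17 and 9 with Gem-SU, at least 4.13-fold higher when set against a floor of 3 counts per library (adjusted p = 0.00604). Wnt11 and Wnt3, like the receptor Fzd9 and the target Tnfrsf19, cleared the filter on low counts only through their Gem-SU libraries. Among tested genes these had to be higher. Wnt9a and Wnt7b, with 4 and 7 counts in Control-SU replicate 2, also needed Gem-SU libraries to clear it. The number of ligands that rose is thus no support for a change of the list. In KPC4 Wnt7b stood at 3.23 to 8.74 CPM with Control-PSC-SU and Wnt9a at 0.0296 to 0.536 CPM. What raised these ligands in PSC4 was not tested.

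The 2 genes for Wnt secretion both fell, as did 22.0% of all genes. Wls, the carrier that takes Wnts to the cell surface, went from 430.9, 399.1 and 353.6 CPM to 230.0, 168.4 and 161.3 CPM, 2.12-fold lower (log2 fold change -1.08, SE 0.18, adjusted p = 0.00195 in edgeR's test). Porcn, the enzyme that attaches the lipid Wnts need for secretion, went from 12.5, 10.4 and 12.4 CPM to 6.44, 4.15 and 5.25 CPM (-1.16, SE 0.23, adjusted p = 0.0041). In both genes all Gem-SU libraries lay below all Control-SU libraries.

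Of 14 receptor genes 2 rose, 5 fell and 7 did not pass, where 24.3% of all genes rose and 22.0% fell. Fzd9, among the 2, cleared the filter on low counts only through Gem-SU and so had to be higher. The Frizzled receptor gene Fzd2 fell 4.32-fold, from 72.2 to 141.8 CPM down to 20.5 to 37.8, and Fzd1 fell 4.56-fold. The co-receptor gene Lrp6 fell from 369.2 to 509.1 CPM down to 135.4 to 191.8, a log2 fold change of -1.31, and Ryk, a Wnt-binding receptor of the kinase-like kind, by as much (-1.31). Fzd6 also fell (-1.04). Fzd5 rose 2.60-fold, from 21.1, 22.1 and 24.1 CPM to 51.5, 64.2 and 59.4 CPM, and Fzd9 rose from 5, 0 and 5 counts to 87, 44 and 66. Frizzled genes thus moved in both directions, each with an adjusted p under 0.05 in edgeR's test.

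In the R-spondin arm beside the genes above, Rnf43, the second ligase of the Znrf3 kind, and the receptor Lgr6 were tested, and neither passed. Rnf43 stood at 4.42 to 5.88 CPM with Control-SU and 4.24 to 6.13 CPM with Gem-SU, and Lgr6 had a log2 fold change of -0.55 (95% interval -1.17 to 0.07). Lgr5 had at most 4 counts in any PSC4 library and was not tested.

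Of 7 secreted and membrane inhibitors 3 fell and 4 did not pass, where 22.0% of all genes fell. Dkk2, which binds LRP co-receptors, fell 8.23-fold from 713, 501 and 548 counts to 109, 49 and 67 (-3.04, SE 0.28, adjusted p = 0.00013 in edgeR's test). Igfbp4, an IGF-binding protein that also binds Wnt receptors, fell from 877.4 to 1378 CPM down to 220.2 to 637.5 (-1.49, adjusted p = 0.0149), a call lost without Gem-SU replicate 2 (-1.30, adjusted p = 0.0658). Without Gem-SU replicate 1 Igfbp4 had -2.11. Kremen1, a Dickkopf receptor, fell by 0.80 on the log2 scale.

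Downstream, 11 of 14 genes of the beta-catenin core did not pass, where 46.3% of all genes were called. Amer1, which binds the destruction complex at the membrane, fell 5.23-fold (60.5 to 94.2 CPM down to 8.97 to 20.5), while Apc (0.91) and Dvl3 (0.44) rose. Of 13 nuclear factors 6 fell and 1 rose, where 22.0% of all genes fell and 24.3% rose. The TCF/LEF genes Tcf7 (-1.35), Lef1 (-0.84) and Tcf7l1 (-0.58) fell, as did the co-activator genes Bcl9 (-0.90) and Pygo1 (-0.87). The co-repressor Tle2 fell 4.71-fold and its relative Tle4 rose 3.17-fold.

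Of 7 genes known as beta-catenin targets 4 rose, 1 fell and 2 did not pass, where 24.3% of all genes rose and 22.0% fell. Tnfrsf19, among the 4, cleared the filter on low counts only through Gem-SU and so had to be higher. Myc rose 3.33-fold, from 47.5 to 56.8 CPM up to 149.4 to 183.5, and Cd44 rose 2.85-fold. Sox9 rose 2.05-fold and Tnfrsf19 from 2, 0 and 2 counts to 36, 19 and 44. Ccn4 (Wisp1), a matricellular protein, fell 2.25-fold. Beside them Axin2 had a log2 fold change of -0.27 that did not pass.

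**Figure D2:**
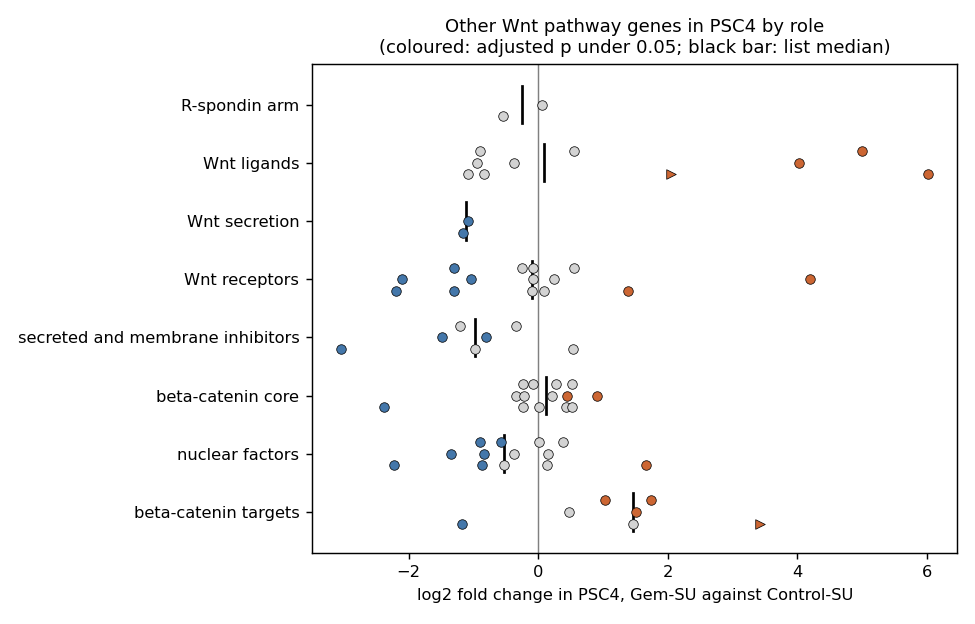
Log2 fold change in PSC4, Gem-SU against Control-SU, of the 69 tested pathway genes outside the 10, by list. Orange points rose and blue points fell at an adjusted p under 0.05, grey points did not pass, black bars are list medians, and triangles are genes with at most 3 counts in each Control-SU library, placed at the change against that floor; 13 genes are orange and 18 blue.

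The second comparison asked what tumour cells do in medium from stellate cells that had met Gem-SU rather than Control-SU. Of the 6 genes tested in KPC4 0 passed, and of all 13236 genes 0 passed as well (0% called in edgeR's test, smallest adjusted p = 0.0863). At an unadjusted p under 0.05 there were 2251 genes (17.0%), of the 6 only Znrf3, and DESeq2 called 806 genes and none of the 6. A fit that blocked on replicate number called 1171 genes (8.85%), again none of the 6.

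Rspo3 was the R-spondin with a row in KPC4. Its counts were 26, 32 and 24 with Control-PSC-SU and 26, 63 and 58 with Gem-PSC-SU, or 0.749 to 0.949 against 0.926, 1.95 and 2.18 CPM. Gem-PSC-SU replicate 1 lay within the controls and the other 2 lay above them. Rspo3 here had a log2 fold change of 1.01 (SE 0.49, 95% interval -0.09 to 2.12, adjusted p = 0.33 in edgeR's test).

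Znrf3 had 827, 721 and 550 counts with Control-PSC-SU and 493, 398 and 383 with Gem-PSC-SU. In CPM this is 23.8, 21.4 and 18.4 against 17.6, 12.3 and 14.4. The groups did not overlap, as was so for 22.8% of all genes, and the log2 fold change of -0.52 (SE 0.22, 95% interval -1.02 to -0.02) had an adjusted p of 0.277, or 0.0998 with the block, in edgeR's test.

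Lgr4 was the most abundant of the genes in KPC4. It had 2897, 2574 and 2113 counts with Control-PSC-SU and 2862, 1472 and 1522 with Gem-PSC-SU. Gem-PSC-SU replicate 1, at 101.9 CPM, was the highest of the 6 libraries and the other 2, at 45.6 and 57.4, the lowest. The log2 fold change was -0.17 (95% interval -0.82 to 0.48, adjusted p = 0.783 in edgeR's test).

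The ligands overlapped between the groups. Wnt5a had 614, 353 and 447 counts with Control-PSC-SU and 568, 144 and 222 with Gem-PSC-SU (-0.38, 95% interval -1.50 to 0.73), and Gem-PSC-SU replicate 1 was again the highest library. Wnt4 had 132, 90 and 88 counts against 111, 104 and 140 (0.40, 95% interval -0.34 to 1.14). Axin2, with 10, 25 and 7 counts against 16, 38 and 11, was too low for a finer reading (0.77, 95% interval -0.79 to 2.33). Dkk3 had 1, 5 and 9 counts against 4, 4 and 1 and did not clear the filter on low counts.

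**Figure D3:**
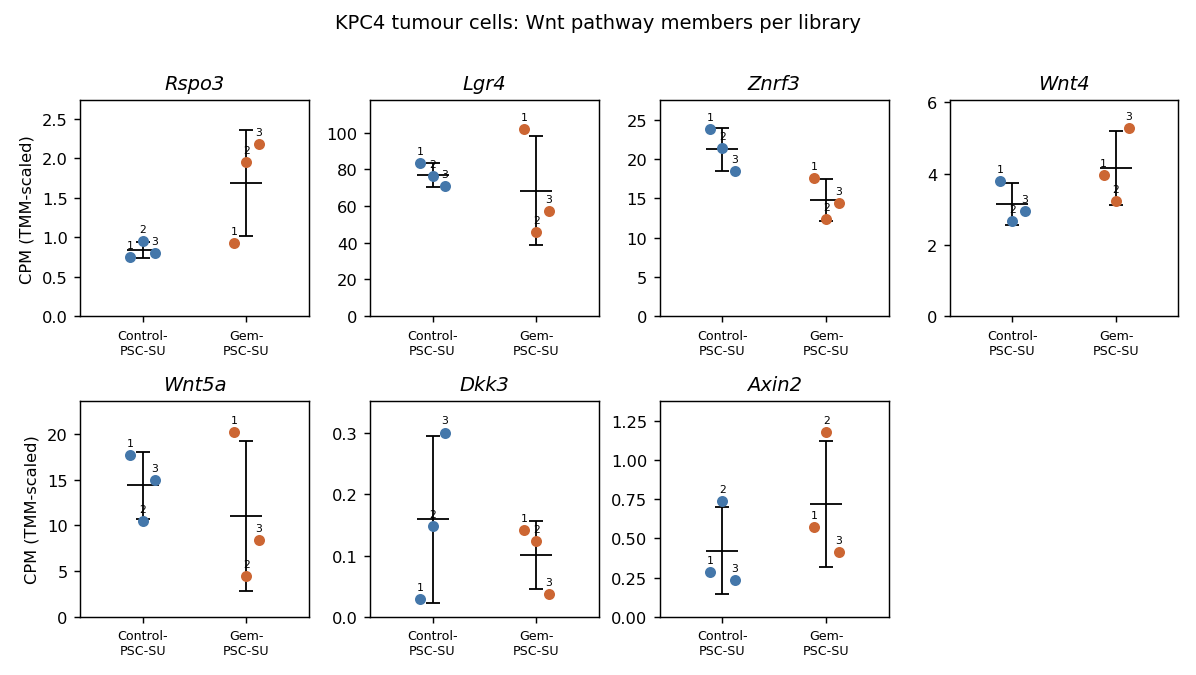
Level of the 7 genes with a row in KPC4, in CPM scaled by TMM factors, in the 3 Control-PSC-SU (blue) and 3 Gem-PSC-SU (orange) libraries, numbered by replicate, with the mean (bar) and SD (whiskers). Axes are linear, start at 0 and differ between panels; the groups are apart in Znrf3 and overlap in the other 6 genes, and Gem-PSC-SU replicate 1 is the highest library for Lgr4 and Wnt5a.

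Of the other pathway genes 58 were tested in KPC4 and 0 passed. The 5 with the smallest p were Lgr6, Bcl9, Dkk2, Porcn and Dvl1. The R-spondin receptor Lgr6 went from 23.1, 39.2 and 33.5 CPM to 22.3, 14.6 and 15.6 CPM (log2 fold change -0.87, adjusted p = 0.175 in edgeR's test). Bcl9 (-0.97) had an adjusted p of 0.189, or 0.0238 with the block, and Porcn (-0.82) one of 0.221, or 0.0389 with the block. With the block 4 of the 58 passed, the others being Apc2 and Gsk3b, where 8.85% of all genes did. Dkk2 (-1.10, adjusted p = 0.215) and Dvl1 (0.44, adjusted p = 0.241) did not pass with it. Leaving out Gem-PSC-SU replicate 1 put Lgr6 (-1.08, adjusted p = 0.0435) and Bcl9 (-1.38, adjusted p = 0.0162) past the threshold, and leaving out Control-PSC-SU replicate 2 put Dkk2 past it (-1.43, adjusted p = 0.0498).

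Whether the 2 lines responded differently was tested as an interaction in 1 fit of all 12 libraries, for the 7 genes with a row in both tables. Rspo3 was the gene of the 7 that passed. Its response in PSC4 minus that in KPC4 was -3.59 on the log2 scale (SE 0.59, 95% interval -4.87 to -2.31, adjusted p = 0.00304 in edgeR's test), where 9.85% of all 13632 genes passed, 5.1% with a lower response in PSC4. It fell in 3 of 3 Gem-SU libraries of PSC4 below all controls and was not called in KPC4. Lgr4 (0.71, 95% interval -0.04 to 1.45) and Znrf3 (0.64, 95% interval -0.03 to 1.32) did not pass, with adjusted p of 0.221 and 0.219. Without KPC4 Gem-PSC-SU replicate 1 Lgr4 did pass (adjusted p = 0.00992). For Wnt4, Wnt5a, Axin2 and Dkk3 the adjusted p was 0.466 or higher.

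**Figure D4:**
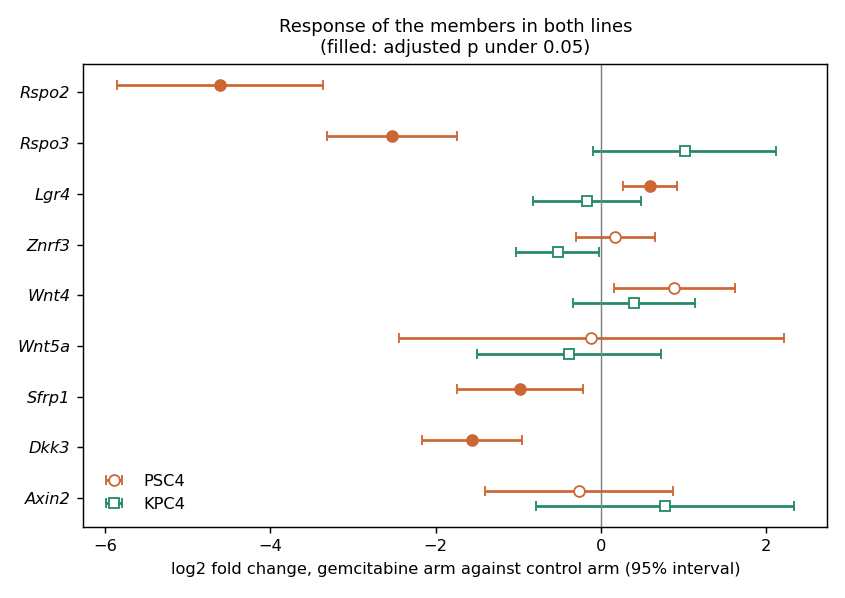
Log2 fold change, gemcitabine arm against control arm, with its 95% interval, in PSC4 (orange circles) and KPC4 (green squares) for the genes tested in each line; filled symbols have an adjusted p under 0.05. Rspo3 lies at -2.53 in PSC4 and 1.01 in KPC4, and no KPC4 symbol is filled.

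In the control libraries the lines themselves differed in most of these genes. Of the 7, 4 were higher in PSC4 and 2 lower, where 42.9% of all genes were called (22.3% higher, 20.6% lower). Dkk3 was 10.61 log2 units higher in PSC4 (95% interval 9.54 to 11.69, adjusted p = 2.77e-09 in edgeR's test), Rspo3 2.43 (adjusted p = 0.000375), Axin2 2.41 (adjusted p = 0.00755) and Wnt4 2.01 (adjusted p = 0.000243). Dkk3 had only 1, 5 and 9 counts in the KPC4 controls, so its value is loose: without KPC4 Control-PSC-SU replicate 3 it was 11.39. Axin2 was at 3.11 without KPC4 Control-PSC-SU replicate 2. Wnt5a was lower in PSC4, with a difference of -5.19 (adjusted p = 0.00018), and so was Lgr4, with -1.69 (adjusted p = 9.54e-05). Znrf3 did not pass (0.31, adjusted p = 0.286). The line and the kind of supernatant it received cannot be told apart in this comparison.

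Per kilobase of exon the order in KPC4 with Control-PSC-SU was Lgr4 (13.1 ± 1.08 RPKM, SD, n = 3), Znrf3 (2.69 ± 0.344), Wnt5a (1.84 ± 0.467), Wnt4 (0.749 ± 0.141), Rspo3 (0.27 ± 0.0333), Axin2 (0.0765 ± 0.0506) and Dkk3 (0.0475 ± 0.0407). Axin2 and Dkk3 overlapped, and the other neighbours did not. With Gem-PSC-SU the order was the same, and the libraries of Znrf3, Wnt5a and Wnt4 overlapped with their neighbours among these 3.

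For the 6 genes tested in both lines, the gene with the most similar course over the 12 libraries was found after the mean of each line was subtracted, among at least 10286 candidates. Rspo3 ran most closely with Cav2 (Pearson r = 0.961), Lgr4 with Tbc1d12 (0.943) and Znrf3 with Srl (0.938). Wnt5a ran most closely with Foxk1 (0.964), Axin2 with Tspan5 (0.915) and Wnt4 with Ppp2r5d (0.884). These are descriptions over libraries that share their groups, with no p, and each is the highest of many.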

How the data were processed

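RNA was sequenced in 12 libraries. The authors deposited raw counts per Ensembl gene and library, 1 table per line (16386 rows in PSC4, 15309 in KPC4), and a comparison table per line with log2 fold changes and p-values, used only as the authors' values. Per the submitters' processing notes the tools include FastQC, Trim Galore 0.6.10, cutadapt 5.2, Salmon, R 4.5.1 and DESeq2 and the build is GRCm39, with no roles stated. The counting rule is not given in the sources used here. The smallest row total is 0 in the PSC4 table and 11 in the KPC4 table, so a gene with no row may have been low. Symbols from GENCODE M21 matched 99.65% and 99.71% of rows, and its union exon lengths gave RPKM. The reference is of another build, so no coordinates are given except for the RefSeq promoters.

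The genes and lists were chosen with earlier results of these data known. Counts were analysed per line with edgeR 4.0.16 (R 4.3.3): filterByExpr, TMM scaling, robust quasi-likelihood test, Benjamini-Hochberg adjustment over all genes at 0.05. The difference of responses and the controls of the lines were tested in 1 fit of all 12 libraries, over 13632 genes with a row in both tables. CPM use the TMM-scaled library total of the line. Scripts were tested on simulated data, 3 simulations per comparison. Of 2-fold changes 42.7% were recovered in PSC4, 23.3% in KPC4 and 6.67% for the difference of responses. Of 4-fold changes these shares were 87.3%, 81.7% and 61%. False calls made up 7.89%, 8.37% and 5.84% of calls. The simulations changed only a small share of genes, where 46.3% were called in PSC4, so these shares need not hold for the real comparison. Of the listed pathway genes, those called in PSC4 with at least a 2-fold change were named, at most 4 per list by p, and in KPC4 the 5 with the smallest p. Others named were chosen after their values were seen. Similarity used log2(CPM + 0.5) of genes with a mean of at least 50 counts in each line.

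Same-numbered KPC4 libraries deviated together (correlations 0.428, 0.52 and 0.31), so the numbers may pair them, on the values alone. The main fits did not use such a pairing. In KPC4 the main fit called 0 genes and the fit with the replicate block called 1171. Intervals cover the modelled spread, and the floor of 3 counts covers counting error only. Alternatives were DESeq2's size factors and its test (1.42.0), no low-count filter, the replicate block, one fit of all 12 libraries and leaving out each library, and library totals without TMM, chosen after seeing the data. The table columns of per-sample values left unused number 0.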

Additional observations from a re-analysis of the deposited data

Results flagged for a closer look

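Responses that differed between PSC4 and KPC4 drew attention through the interaction test, in which edgeR called 1343 of 13632 genes at an adjusted p under 0.05. Differences are given as PSC4 minus KPC4 on the log2 scale. Among the 10 genes, Rspo3 differed by -3.59 and passed without any 1 of the 12 libraries.

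Of the 63 listed pathway genes tested for it, 5 passed with a higher and 5 with a lower response in PSC4. Over all genes 4.75% passed with a higher and 5.1% with a lower one. Only genes named by the rule above were followed up, which leaves out 1 receptor gene with a lower response in PSC4. Among those followed up, the ligand Wnt7b (3.83), the receptor gene Fzd5 (1.48) and the hyaluronan receptor gene Cd44 (1.19) also passed without any 1 library. Wnt9a differed by 4.70, was not past the threshold with the replicate block (adjusted p = 0.0926), and lost the call without PSC4 Gem-SU replicate 2 (4.49, adjusted p = 0.0521) or KPC4 Control-PSC-SU replicate 3 (3.64, adjusted p = 0.132). It was larger without PSC4 Control-SU replicate 3 (5.51) or KPC4 Gem-PSC-SU replicate 2 (5.54). The remaining 5 of those followed up lost the call when some single libraries were left out. These were Ccn4 (-1.17), lost in 4 of 12 cases with an adjusted p up to 0.0698, and Dkk2 (-1.99), lost in 5 with one up to 0.0768, both highest without PSC4 Gem-SU replicate 2. Sox9 (0.92) was lost in 8 of 12 with an adjusted p up to 0.0902 and Tcf7 (-1.26) in 8 with one up to 0.0707, again highest without that library. Amer1 (-1.97) was lost in 8 with one up to 0.0989, highest without PSC4 Control-SU replicate 3, and was at 0.0553 with library totals alone. Without KPC4 Gem-PSC-SU replicate 1 its difference was -1.27.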

How the results depend on the processing

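Of the 10 genes, 5 passed in PSC4, and 3 (Rspo3, Wnt4 and Dkk3) did so in one fit of all 12 libraries, which leaves out Rspo2 and Sfrp1 as genes without a row in both tables. Leaving out single libraries gave 3 to 5, with 3 without Control-SU replicate 3 and without Gem-SU replicate 2. In KPC4 0 passed and between the control lines 6 passed under every alternative run. For the difference of responses the number was 1, and 1 to 2 with a library left out, with 2 without KPC4 Gem-PSC-SU replicate 1. Over all genes, PSC4 gave 6177 calls, 4061 to 6826 with a library left out (4061 without Gem-SU replicate 2). KPC4 gave 0 calls, 806 with DESeq2, 1 with library totals alone, 610 in one fit of all 12 libraries and 0 to 1129 with a library left out (174 without Control-PSC-SU replicate 2, 1129 without Gem-PSC-SU replicate 1, 1 without Gem-PSC-SU replicate 2). The difference of responses gave 1343 calls, 2163 with DESeq2 and 610 to 1993 with a library left out. The cause was not tested.

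With the replicate block KPC4 gave 1171 calls, the difference of responses 2988 and PSC4 7266, and Wnt4 passed in PSC4 (0.94, adjusted p = 0.00212). Same-numbered PSC4 libraries correlated at 0.557 for replicate 1, above every KPC4 value, but at -0.044 and 0.0973 for the other replicates. Whether the PSC4 numbers mark pairs was not tested. Of the 10 genes no other call changed with the replicate block. Wnt4 in PSC4 also passed without a low-count filter (adjusted p = 0.0476), with library totals alone (0.0392) and in one fit of all 12 libraries (0.0484).

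Signs changed where no call was made. The change of Wnt5a in PSC4 was 0.14 with the replicate block and -0.72 to 0.33 with a library left out. Axin2 in PSC4 ran from -0.99 to 0.042 with a library left out, Lgr4 in KPC4 from -0.58 to 0.051, and the difference of responses of Wnt5a from -0.37 to 0.97. Counts near 10 in Wnt5a (PSC4), Axin2 and Dkk3 (KPC4) limit what these genes can show.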
